A study of Mus musculus with 8 samples.

Results

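The p200 family is a set of interferon-inducible DNA sensors, of which 5 genes are described here in mouse pancreas: Ifi204, Ifi205, Aim2, Ifi203 and Mnda. They were chosen by name with their change in the knockout already known. Their KO to WT differences are therefore given as a description, with no test. The platform annotation gave 3 of the 5, Ifi204, Ifi205 and Aim2, a row of their own among 22180 genes measured. Ifi203 stood only in a row shared with LOC100862473 and the pseudogene Ifi203-ps. Mnda, which RefSeq lists as an older name of Ifi211, could be met only in a row shared by Ifi211 and Ifi204. These 2 shared rows are reported as rows and not as single genes. A further 8 genes of the family had a row of their own, which made 13 rows in all.

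Arrays covering whole transcripts were run on total RNA of pancreas taken at day 6 after tamoxifen, with 4 arrays of LmnaKO mice (KO) and 4 of LmnaWT control mice (WT). Both groups were C57 BL6 mice, both received tamoxifen by intraperitoneal injection at 3 mg per 40 g, and each group held 3 males (replicates 1 to 3) and 1 female (replicate 4). Lmna encodes lamin A/C, a nuclear lamina protein, and the title says that it was ablated in acinar cells, the enzyme-making cells of the exocrine pancreas. The sources used here give neither the Cre driver nor the age of the mice. The labels number the samples and do not say that each came from its own mouse, so p-values reflect only the spread between these samples, which may be technical.

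Proteins of the p200 (PYHIN) family typically join a pyrin domain, which binds other pyrin domains, to 1 or more HIN domains, which bind DNA. AIM2 binds double-stranded DNA in the cytosol and assembles an inflammasome with the adaptor ASC and caspase-1, while mouse p204, the product of Ifi204, is a relative of human IFI16, has been linked to DNA-driven interferon induction through STING and binds the retinoblastoma protein. The genes lie side by side on chromosome 1, are induced by interferons, and are known mainly from macrophages and other white blood cells. In RefSeq (GRCm38.p6) 13 protein-coding genes of the family followed each other from Aim2 to Ifi205 with 0 other protein-coding genes between them.

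Induction by type I interferon acts through the interferon-stimulated response element, so the 250 bases before each RefSeq start were searched on both strands for its core, which is GAAA, any 2 bases and GAAA again. Of the 13 protein-coding genes, 12 had a promoter sequence in the RefSeq table, and Ifi204 was not among them. The core was found in 9 of the 12, against 3.47% of all 26742 genes with a window. The family arose by duplication and its promoters share sequence, so these 9 are not independent, and a match of letters is not a bound site. Windows of 40 bases around the core (capitals) are shown, 5′ to 3′ from RefSeq GRCm38.p6, for members, for the relatives Mndal and Ifi209 and for Ifi213 and Ifi214, whose rows were close to equal in the 2 groups.
Ifi205 (chr1:174031865-174031904, minus strand): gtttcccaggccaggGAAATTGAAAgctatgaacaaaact
Ifi211 (chr1:173913059-173913098, minus strand): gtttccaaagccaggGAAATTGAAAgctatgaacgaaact
Ifi203 (chr1:173942503-173942542, minus strand): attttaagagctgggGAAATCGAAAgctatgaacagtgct
Mndal (chr1:173880199-173880238, minus strand): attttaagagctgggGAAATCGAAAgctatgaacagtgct
Ifi209 (chr1:173630765-173630804, plus strand): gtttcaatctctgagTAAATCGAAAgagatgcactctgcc
Ifi213 (chr1:173599321-173599360, minus strand): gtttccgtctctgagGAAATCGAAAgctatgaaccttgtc
Ifi214 (chr1:173536012-173536051, minus strand): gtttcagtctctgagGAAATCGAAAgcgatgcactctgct
Ifi205 and Ifi211 carried the same 10 letters, GAAATTGAAA, and Ifi203, Mndal, Ifi213 and Ifi214 carried GAAATCGAAA. In Ifi209 the aligned stretch was G1T against the core, counted from the core's 5′ end, so its letters do not count as a match. The core began 134 bases before the start of Ifi205, and 37, 35 and 36 bases before those of Ifi211, Ifi203 and Mndal. RefSeq gives Ifi203 and Mndal 2 starts each: for Ifi203 the core stood before 1 of them, and for Mndal the other start had a match of its own on the opposite strand, TTTCTCTTTC, 54 bases before it. Mndal, whose row rose, and Ifi213 and Ifi214, whose rows were not called, carried the same letters. The rows of Ifi213 and Ifi214 were dim (percentiles 28.2 and 8.6 by mean level), so a difference there may not have been measurable. Whether the core bears on the differences was not tested. The windows of Ifi203 and Mndal were identical over all 40 bases. The core of the gamma-activated site, TTCNNNGAA, which reads alike on both strands and did not overlap the other core in these windows, was found in 1 of the 12 genes (Ifi202b), against 8.17% of all genes.

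The 250 bases before the start are given for the 2 members with both a row of their own and a RefSeq promoter, because they differ in the core: that of Ifi205 holds it (capitals), while these letters are absent from that of Aim2.
Ifi205 (chr1:174031756-174032005, minus strand): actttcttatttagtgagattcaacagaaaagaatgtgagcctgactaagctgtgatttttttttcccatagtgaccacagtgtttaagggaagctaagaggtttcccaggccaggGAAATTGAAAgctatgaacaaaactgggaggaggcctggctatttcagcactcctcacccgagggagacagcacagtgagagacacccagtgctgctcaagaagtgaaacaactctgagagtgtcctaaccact
Aim2 (chr1:173420354-173420603, plus strand): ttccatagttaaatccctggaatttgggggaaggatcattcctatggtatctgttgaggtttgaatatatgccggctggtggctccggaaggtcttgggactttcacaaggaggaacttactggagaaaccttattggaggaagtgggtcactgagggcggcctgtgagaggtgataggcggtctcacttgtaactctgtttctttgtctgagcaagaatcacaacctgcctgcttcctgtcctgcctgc

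The deposited values are log2 expression after the robust multi-array average (RMA), for which signal over background is unknown here, and the number of arrays limits the precision. Lmna itself read 2.33, 2.58, 2.73 and 2.61 in KO 1 to KO 4 and 2.54, 3.13, 2.67 and 2.88 in WT 1 to WT 4 (difference -0.24 ± 0.15, SE, n = 4 per group, limma adjusted p = 0.264), and since the position of its probes relative to the deletion is not known, it does not check the labels. Acinar markers were among the brightest rows, with 9 of 12 measured at or above percentile 99 when all genes are ranked by mean level. Over all genes 4792 of 22180 (21.6%) passed an adjusted p of 0.05, where 3241 (14.6% of all genes) were higher and 1551 (6.99%) lower in KO. Of these calls 67.6% were higher in KO, a share of 51.8% after renewed quantile normalization, 56.4% after cyclic loess and 87.7% after median centring. Median centring moved the median difference of all genes to 0.08, against -0.06 as deposited. KO and WT arrays did not overlap in 6075 genes (27.4%), with KO higher in 3395 (15.3%).

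Ifi204 showed the largest difference of the 13 rows. It read 5.70, 6.47, 5.90 and 7.04 in KO 1 to KO 4 and 3.54, 4.24, 4.22 and 3.63 in WT 1 to WT 4. Every KO array lay above every WT array, and KO 4 was the highest. The difference was 2.37 ± 0.29 log2 units (SE), 5.17-fold, between 6.28 ± 0.60 in KO and 3.91 ± 0.38 in WT (SD, n = 4 each). Same-numbered arrays differed by 2.16, 2.23, 1.68 and 3.42.

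Ifi205, whose protein p205 is known from mouse myeloid cells, read 7.37, 8.14, 7.16 and 8.83 in KO 1 to KO 4 and 5.81, 7.01, 5.79 and 6.47 in WT 1 to WT 4. Here too the groups did not overlap, but by little, since WT 2 came close to KO 3. The difference was 1.61 ± 0.39 (3.04-fold), between 7.88 ± 0.77 in KO and 6.27 ± 0.59 in WT. In all 4 same-numbered pairs KO was higher, by 1.13 to 2.36.

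Aim2 read 1.77, 3.30, 2.16 and 2.70 in KO 1 to KO 4 and 1.54, 1.87, 1.86 and 1.98 in WT 1 to WT 4. All WT arrays lay below KO 2, KO 3 and KO 4, whereas KO 1 was exceeded by 3 of them, so the groups overlapped. The difference was 0.67 ± 0.29 (1.59-fold), between 2.48 ± 0.66 in KO and 1.81 ± 0.19 in WT. It was 0.40 without KO 2 and 0.91 without KO 1. The row was dim, since its mean ranked at percentile 41.2 among all genes. KO was higher in each same-numbered pair, by 0.23 to 1.43.

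The row shared by Ifi211 and Ifi204 read 7.02, 7.61, 6.78 and 8.0 in KO 1 to KO 4 and 5.10, 5.50, 5.77 and 5.90 in WT 1 to WT 4. The groups did not overlap, and KO 4 and KO 2 were the highest, as in the Ifi204 and Ifi205 rows. The difference was 1.79 ± 0.29 (3.45-fold), and how much of it belongs to either gene cannot be told apart.

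The row shared by Ifi203, LOC100862473 and Ifi203-ps read 4.02, 5.02, 4.57 and 4.48 in KO 1 to KO 4 and 2.90, 3.86, 3.77 and 5.08 in WT 1 to WT 4. The WT female, WT 4, was the highest of all 8 arrays, so the groups overlapped, while KO 1 to KO 4 all lay above the 3 WT males. The difference was 0.62 ± 0.42 (1.54-fold), and 1.01 without WT 4 and 0.28 without WT 1. It was 0.28 after renewed quantile normalization and 0.31 after cyclic loess.

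**Figure D1:**
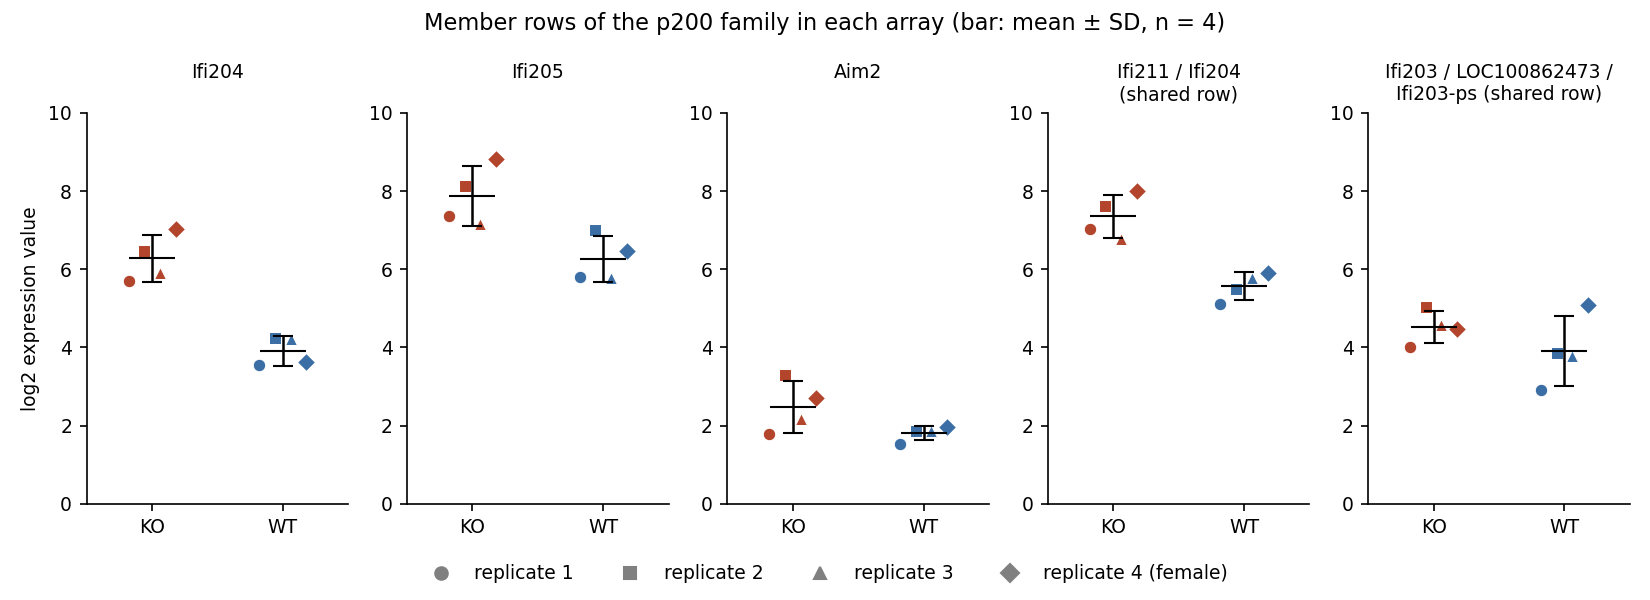
Log2 expression value (vertical axis) of the 3 members with a row of their own and of the 2 shared rows, for KO (left) and WT (right) arrays. Points are single arrays with a shape per replicate, and bars show the mean ± SD (n = 4). KO and WT points are separate for Ifi204, Ifi205 and the row shared by Ifi211 and Ifi204, and overlap in the other panels.

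Of the 3 members with a row of their own, 2 (Ifi204 and Ifi205) passed the threshold of the fit over all genes and 2 had groups that did not overlap, beside 21.6% of all genes called (14.6% higher, 6.99% lower) and 27.4% not overlapping (15.3% with KO higher). The members were chosen on this contrast, so nothing is read from these counts. Ifi205 was no longer called after renewed quantile normalization (1.30), after cyclic loess (1.24), among males only (1.35) and without WT 3 (1.45), and Aim2 passed without KO 1. In bulk tissue a change in the number of expressing cells and a change in RNA per cell cannot be told apart.

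Relatives outside the chosen members were tested. Of the 8 with a row of their own, 2 rose (25%) and 0 fell, beside 14.6% of all genes called higher, and their median difference was 0.11, against -0.06 over all genes. The first was Mndal, an MNDA-like gene, at 4.16, 5.37, 5.08 and 4.92 in KO 1 to KO 4 and 2.98, 2.91, 3.04 and 4.50 in WT 1 to WT 4 (difference 1.53 ± 0.37, limma adjusted p = 0.0198). WT 4 reached into the KO range, and the other WT arrays lay more than 1 log2 unit below each KO array.

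The other was Ifi209, also listed as Pyhin1, at 2.21, 4.38, 2.69 and 3.06 in KO 1 to KO 4 and 1.31, 0.92, 1.51 and 2.50 in WT 1 to WT 4 (difference 1.53 ± 0.46, limma adjusted p = 0.0411). KO 2 was the highest and WT 4 again the highest WT array. Both calls sat near the threshold. That of Mndal was lost without KO 3 (1.46), KO 4 (1.52) or WT 3 (1.42), after renewed quantile normalization (1.27) and after cyclic loess (1.23). That of Ifi209 was lost without KO 2 (1.10), KO 3 (1.66), KO 4 (1.53), WT 1 (1.44), WT 2 (1.31) or WT 3 (1.51) and among males only (1.85).

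Ifi207 differed by 0.57 ± 0.23 (adjusted p = 0.103) and did not pass. The remaining 5 differed by between -0.14 (Ifi202b) and 0.20 (Ifi203-ps), with adjusted p from 0.38 to 0.994. Among them were Ifi202b, whose product p202 lacks a pyrin domain and is known to be little expressed in C57BL/6 mice, Ifi208, Ifi213 and Ifi214. The rows of these 4 genes were dim, between percentiles 5.76 and 28.2 of the mean levels, so a difference there may not have been measurable. The 5 protein-coding genes on each side of the cluster were all measured. Of these 10, limma called 0 in either direction, beside 21.6% of all genes, with differences from -0.53 to 0.08. The levels of these rows were not looked at, so a difference there may not have been measurable.

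**Figure D2:**
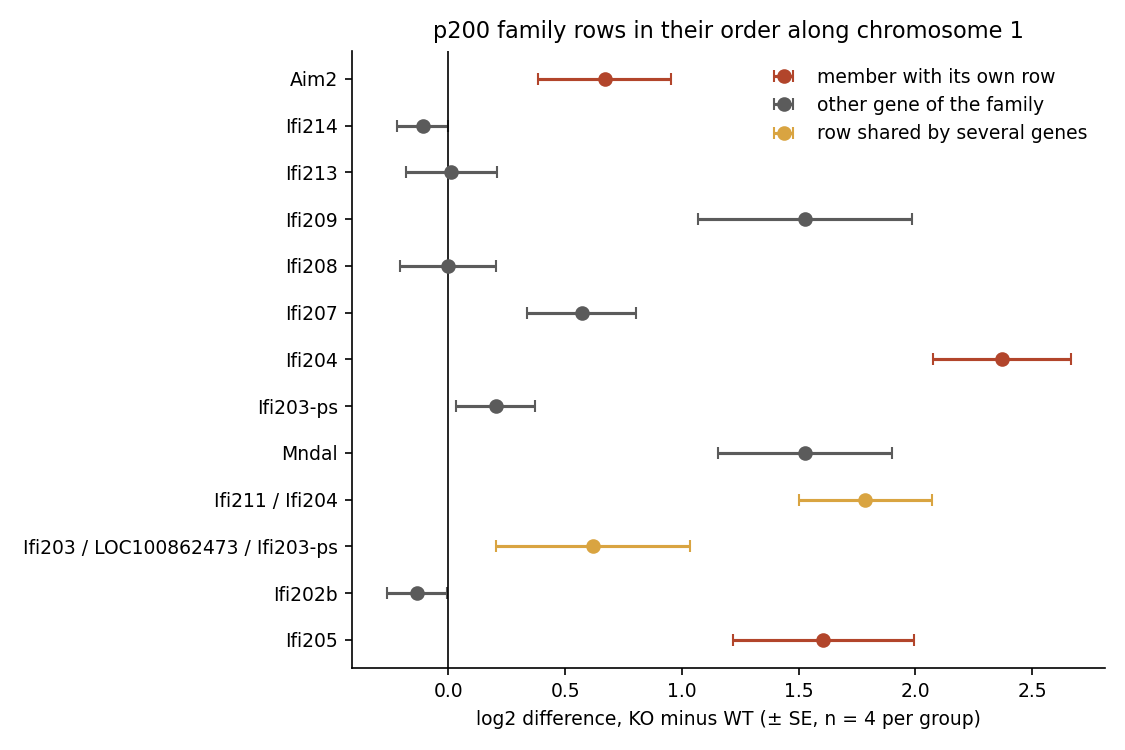
Log2 difference, KO minus WT (horizontal axis, ± SE, n = 4 per group), of all 13 rows of the family, listed in RefSeq order from Aim2 to Ifi205. Ifi204 stands at 2.37, the shared row of Ifi211 and Ifi204 at 1.79 and Ifi205 at 1.61, while Ifi214, Ifi213, Ifi208 and Ifi202b lie near 0 between rows that are higher.

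The 8 rows that differed by over 0.5 split by which KO array was highest. KO 2 was the highest in 5 of them (Aim2, Ifi209, Ifi207, Mndal and the row shared by Ifi203) and KO 4, the KO female, in 3 (Ifi204, Ifi205 and the row shared by Ifi211 and Ifi204). KO 1 was the lowest KO array for Ifi204, Aim2, Ifi209, Mndal and the row shared by Ifi203. Over all 13 rows WT 4 was the highest WT array in 6.

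**Figure D3:**
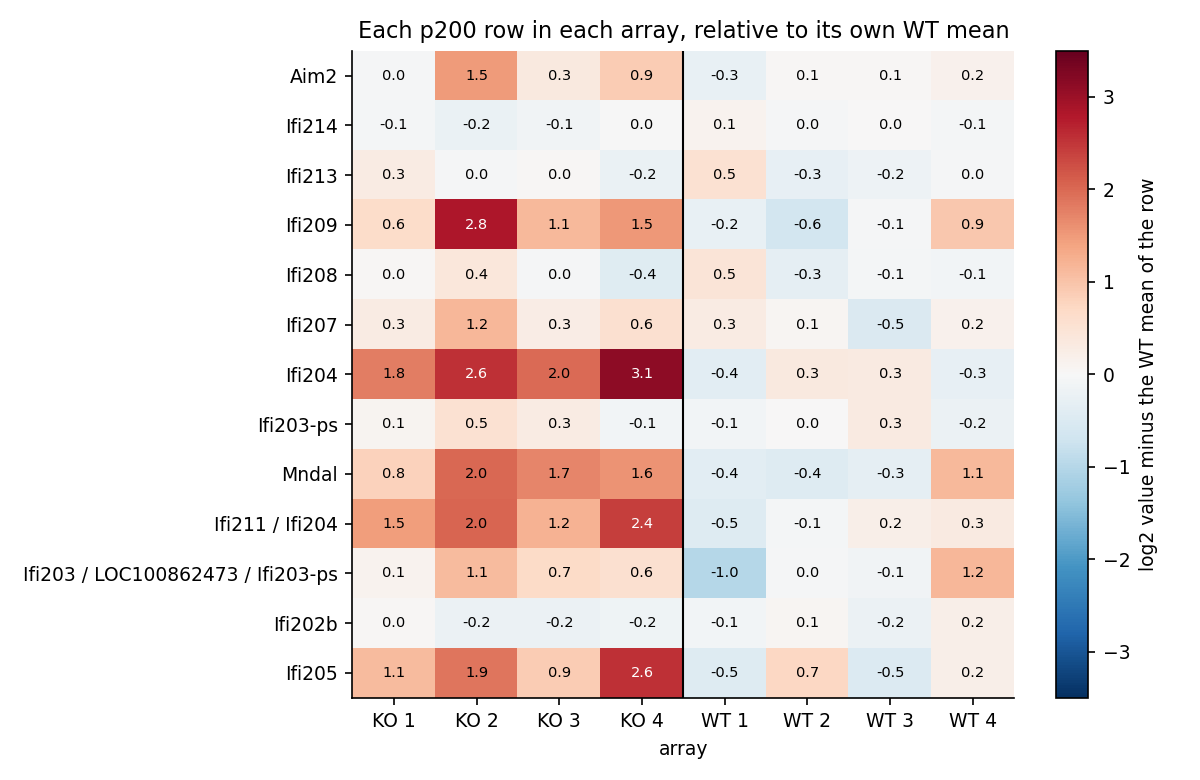
Each cell gives the log2 value of a p200 row (vertical, RefSeq order) in an array (horizontal, KO left of WT) minus the WT mean of that row. The Ifi204 row is above its WT mean in all 4 KO arrays by 1.79 to 3.13, and WT 4 is raised in the Mndal, Ifi209 and Ifi203 rows.

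Sex was not used to choose the members. The KO female read 7.04 for Ifi204 against a mean of 6.02 in KO males, and the WT female 3.63 against 4.0 in WT males. The genotype difference of Ifi204 was larger in females by 1.39 ± 0.54 (limma, unadjusted p = 0.0336, adjusted p = 1), so it did not pass after adjustment. For Mndal the same term was -1.47 ± 0.59 (unadjusted p = 0.0389, adjusted p = 1). For Ifi205 (1.01 ± 0.77) and Aim2 (0.07 ± 0.73) the term had adjusted p = 1 as well. The female minus male difference was 0.32 ± 0.34 for Ifi204, 0.77 ± 0.40 for Ifi205 and 0.25 ± 0.34 for Aim2 (adjusted p = 1 for each). Only 1 of 22180 genes (0.00451%) passed in either test, and with 1 female per genotype the lone female is assumed to vary like the males. In the female minus male test 1 gene was called higher and 0 lower in females. Sex is taken from the labels, and no check of it on sex-linked genes is given here.

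In the DNA sensing list 13 of 25 measured genes rose and 0 fell (52%, beside 14.6% of all genes called higher), and their median difference was 0.73. Myd88, the adaptor of Toll-like receptors, rose by 1.59 ± 0.21 (adjusted p = 0.00222), Rad50, a DNA break sensor, by 1.04 ± 0.12 (adjusted p = 0.00145), Xrcc6 (Ku70, which binds DNA ends) by 0.91 ± 0.14 (adjusted p = 0.00416, not called after renewed quantile normalization at 0.52) and Prkdc (DNA-PKcs) by 0.92 ± 0.17 (adjusted p = 0.00722). Sting1, the adaptor downstream of cGAS, rose by 1.55 ± 0.48 (adjusted p = 0.0459), between 2.98 and 5.28 in KO and between 2.07 and 2.91 in WT. Its call was lost without any 1 of KO 2, KO 3, KO 4 or the 4 WT arrays (1.19 to 1.78), after renewed quantile normalization (1.43), after cyclic loess (1.40) and among males only (1.23). Irf7, an interferon-inducing transcription factor, rose by 0.78 ± 0.19 (adjusted p = 0.0209) and lost its call without WT 3 (0.77), after renewed quantile normalization (0.54) and after cyclic loess (0.56). Cgas, the DNA sensor upstream of STING, differed by 0.13 ± 0.16 (adjusted p = 0.533) in a dim row. The count was 6 without KO 4, 4 after renewed quantile normalization and 6 after cyclic loess. The median was 0.37 and 0.39 after these scalings.

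The inflammasome list holds the partners of AIM2 and genes of other inflammasomes. Of its 22 measured genes 5 rose and 0 fell (22.7%, beside 14.6% of all genes called higher), with a median of 0.63. The count was 9 with the replicate number as a block, 9 after median centring and 3 without KO 2, KO 4 or WT 3. Casp8 (1.55 ± 0.31, adjusted p = 0.00965), the NAIP receptor Naip2 (1.07 ± 0.17, adjusted p = 0.0047) and the NLRP3 partner Nek7 (0.83 ± 0.18, adjusted p = 0.0137) rose, the last not after renewed quantile normalization (0.44) or cyclic loess (0.43). Casp1, the protease that AIM2 activates, rose by 1.51 ± 0.41 (adjusted p = 0.0287), a call lost without KO 2 (1.22), KO 4 (1.31) or WT 3 (1.5) and among males only (1.44). Pycard, which encodes the adaptor ASC, differed by 0.44 ± 0.17 (adjusted p = 0.0809) and was called after median centring (0.58). The caspase-1 substrates Il1b (1.70 ± 0.92, adjusted p = 0.192) and Il18 (0.55 ± 0.21, adjusted p = 0.0814) did not pass, though Il18 did with the block, after median centring, after cyclic loess and without KO 1 (0.75). Il1b read 2.03, 5.53, 1.77 and 5.83 in KO 1 to KO 4 and 1.94, 3.26, 1.26 and 1.88 in WT 1 to WT 4, so only KO 2 and KO 4 stood above all 4 WT arrays.

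None of Ifnb1, Ifng and Ifna1 was called higher. Ifnb1 was dim and read 0.96 to 1.09 in KO and 1.10 to 1.57 in WT (-0.32 ± 0.14, adjusted p = 0.123), Ifng differed by -0.26 ± 0.21 (adjusted p = 0.355), and Ifna1 fell (log2 difference -0.57 ± 0.13, adjusted p = 0.0174, not called without KO 4). Interferon alpha genes are near-identical copies that could share probes. Over all genes 14.6% were called higher and 6.99% lower. In the list of interferons and their signalling 6 of 23 genes rose and 1 fell, with a median of 0.27. The count of calls was 4 without KO 2, KO 4 or WT 3. The interferon receptor subunit Ifnar1 (1.36 ± 0.16, adjusted p = 0.00161) and the kinase Jak2 (1.34 ± 0.24, adjusted p = 0.00597) rose. Stat2 rose by 0.51 ± 0.12 (adjusted p = 0.0159), but not after renewed quantile normalization (0.25) or cyclic loess (0.28).

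Among interferon-stimulated genes 23 of 47 measured rose and 0 fell, beside 14.6% of all genes called higher, with a median of 0.64. The kinase PKR, Eif2ak2 (1.18 ± 0.14, adjusted p = 0.00194), the RNA sensor MDA5, Ifih1 (1.31 ± 0.21, adjusted p = 0.00415), Ifit1 (1.06 ± 0.20, adjusted p = 0.0076), Lgals3bp (0.92 ± 0.17, adjusted p = 0.00772) and Isg15 (0.73 ± 0.14, adjusted p = 0.00845) were among the list genes that rose. For these 5 the KO and WT arrays did not overlap, but all save Isg15 were named for their small p in this same contrast. Over the list 22 of 47 had every KO array above every WT array, beside 15.3% of all genes. The count of calls was 15 without KO 2 or KO 3, 10 without KO 4 and 9 after either renewed quantile normalization or cyclic loess. Genes of middle and high level were called more often in general: of all genes with a mean of at least 4 over the 8 arrays, 36.2% were higher in KO. In that range 10 of 15 interferon-stimulated, 8 of 14 DNA sensing, 3 of 5 inflammasome, 5 of 11 interferon signalling and 3 of 7 p204 partner genes were higher, and 4 of 13 macrophage markers. Among all genes with a mean of at least 4 in a group the median difference was 0.47. With that filter it was 0.80 for interferon-stimulated, 0.78 for DNA sensing and 0.77 for inflammasome genes. For interferon signalling and p204 partner genes it was 0.51, and for macrophage markers 1.30.

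Proteins bound or acted on by mouse p204 include the retinoblastoma family and Id proteins, and a list of such partners with Cdkn1a held 11 measured genes. Of these 4 rose and 1 fell, beside 14.6% of all genes called higher and 6.99% lower. The list had 8 calls in all without WT 1. The median of 0.22 turned to -0.13 after renewed quantile normalization and -0.12 after cyclic loess. Rb1 rose by 1.19 ± 0.26 (adjusted p = 0.0138), its relative Rbl1 by 1.01 ± 0.21 (adjusted p = 0.0114) and the cell cycle inhibitor Cdkn1a by 3.39 ± 0.26 (adjusted p = 0.000437). The cardiac factor Nkx2-5 fell (-0.86 ± 0.18, adjusted p = 0.0119).

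Of 18 macrophage markers 9 rose and 0 fell, beside 14.6% of all genes called higher, with a median of 1.27. Of the 13 with a mean of at least 4 over the 8 arrays 4 rose, beside 36.2% of all genes at that level. The markers were led by Adgre1 (F4/80) at 2.29 ± 0.38 (adjusted p = 0.00504), and Cx3cr1 had the smallest difference (-0.03 ± 0.19). The level of the list, that is, the average of its genes after each gene's mean over the 8 arrays was subtracted, was -0.19, 1.02, 0.88 and 1.06 in KO 1 to KO 4 and -1.31, -0.10, -0.80 and -0.56 in WT 1 to WT 4. KO 1, the lowest KO array for Ifi204, lay within the WT range. All 18 markers ranked at or above percentile 50 by mean level. The part of these cells in the p200 differences was not tested.

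Neutrophil markers were called in 0 of 12 genes (from -0.31 for Mpo to 1.30 for Retnlg), and their level was 1.05 and 0.85 in KO 2 and KO 4, where Ifi204, Ifi205 and the row shared by Ifi211 and Ifi204 were highest. It was -0.49 and -0.55 in KO 1 and KO 3 and between -0.35 and 0.01 in WT. High levels in KO 2 and KO 4 were not particular to neutrophil markers. These arrays were also the highest for macrophage markers (1.02 and 1.06) and the inflammasome list (0.71 and 0.76). The same held for the DNA sensing (0.41 and 0.44), interferon-stimulated (0.40 and 0.36) and interferon signalling (0.26 and 0.19) lists. B cell markers were called in 0 of 7 (from -0.40 for Pax5 to 2.03 for Jchain), with levels of -0.78 to 1.61 in KO and -0.55 to 0.83 in WT. The highest were those of KO 2 and, among WT arrays, WT 4, where Mndal, Ifi209 and the row shared by Ifi203 were also high. T and NK cell markers were called higher in 0 and lower in 1 of 13, beside 6.99% of all genes called lower. Their levels were -0.19 to 0.02 in KO and -0.19 to 0.45 in WT, and WT 4 was the highest. Nkg7 fell (-0.57 ± 0.15, adjusted p = 0.025, not called without KO 1, KO 4, WT 2 or WT 4 or among males only), and Cd2 was at the other end of that list (0.12). Dendritic cell markers were called in 0 of 8 (from -1.03 for Cd209a to 1.26 for Itgax). With the mean of a gene's rows Cd209a differed by only -0.24. Endothelial markers were called in 0 of 7 (from -0.86 for Kdr to 0.48 for Tek). Whether these cells bear on the high values of WT 4 was not tested. Acinar markers were at -0.30 to -0.13 in KO and 0.16 to 0.27 in WT. Of the 12 measured, 4 were called lower in KO, beside 6.99% of all genes. Differences of single acinar markers ran from -1.60 for the transcription factor gene Rbpjl (adjusted p = 0.00126) to 0.08 for Gp2.

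**Figure D4:**
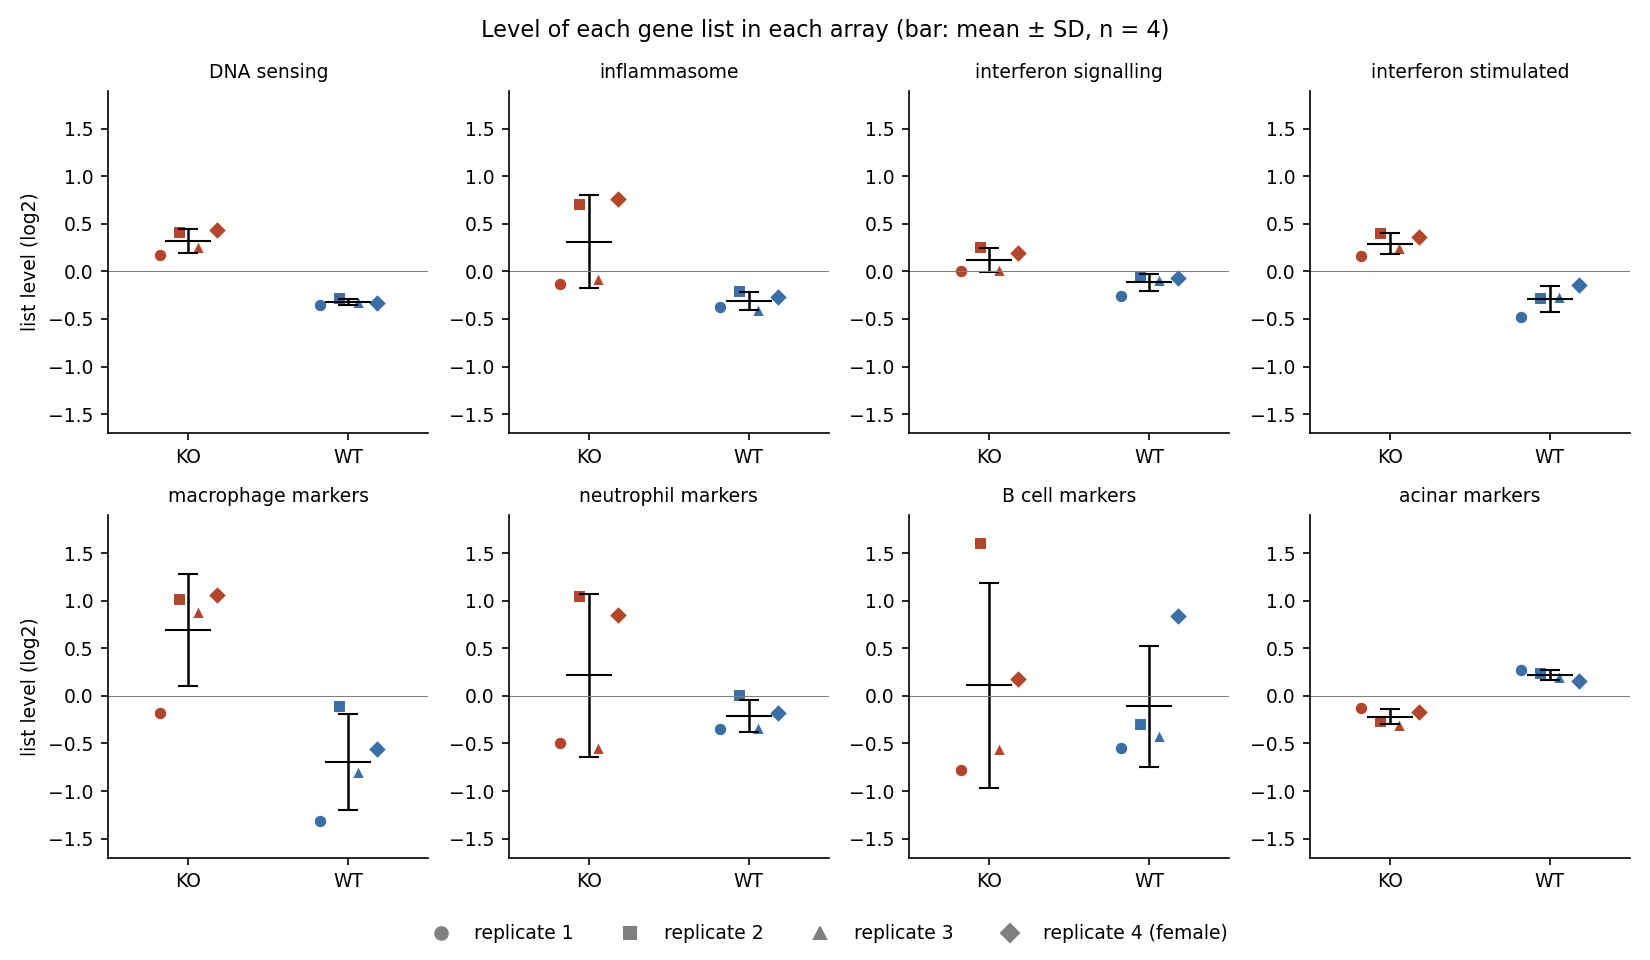
Level of 8 gene lists in each array (vertical axis, log2 units, average of genes centred on their own mean over the 8 arrays) for KO (left) and WT (right), with the mean ± SD (n = 4). The DNA sensing, inflammasome, interferon signalling and interferon-stimulated levels of all KO arrays lie above those of all WT arrays. Acinar levels of all KO arrays lie below those of all WT arrays, while macrophage, neutrophil and B cell levels overlap.

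The genes whose profile over the 8 arrays was closest to each member, by the root mean square distance of log2 values relative to each gene's own WT mean, were Clec4a1 (0.31), Gpr65 (0.35) and Tlr13 (0.35) for Ifi204. For Ifi205 they were Csf2ra (0.25), Nabp1 (0.26) and Plin2 (0.28), and for Aim2 they were Atp7a (0.10), Fam126a (0.11) and Itga5 (0.12). Csf2ra read 4.90, 6.14, 5.42 and 6.36 in KO 1 to KO 4 and 3.67, 4.93, 3.92 and 4.48 in WT 1 to WT 4, with KO 4 and KO 2 highest and WT 2 the highest WT array, as for Ifi205. It was picked for its nearness to Ifi205, so this likeness follows from the choice and is no separate result.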

How the data were processed

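The authors deposited 1 table of log2 expression values with 41345 rows and 8 arrays. Per the submitters' processing notes it was made with oligo, RMA and limma, with no versions given, and the log base is read from the range of values (0.04 to 12.47). Scanner files were not used here, so no other background correction could be tried, and 0 columns stayed unmapped. Gene names come from the platform annotation: 23521 rows had 1 gene symbol and entered the fit, 1814 had several and 16010 none. Where a gene had more than 1 row (1082 genes) the brightest on average was kept, leaving 22180 genes. Each member with a row of its own had 1 row.

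KO was compared with WT in limma 3.58.1 under R 4.3.3 (functions lmFit and eBayes), with genotype as the only factor and Benjamini-Hochberg adjustment over all genes at 0.05. Differences are KO minus WT, ± SE. The 2 shared rows were fitted in the table of all rows. Near-identical genes of the family could share probes, so values of single genes are uncertain. The members, lists and naming rule were chosen with earlier results of these data known. The rule named all members and relatives, and in each pathway list its first gene and up to 4 called genes of smallest p. Sting1, Pycard, Casp1, Il1b, Il18, Ifnb1, Ifng, Irf7 and Rb1 were named whether called or not, as were Adgre1, the extremes of each marker list and the 3 nearest profiles of each member. A further gene of the rule is not reported here.

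Both groups carry replicate numbers 1 to 4. After group means were subtracted, arrays with the same number correlated across genes at 0.26, 0.17, 0.11 and 0.14. Each is the highest value among the combinations that hold its KO array, and also among those that hold its WT array. All exceed 0.1, but so do 2 of the other combinations (KO 2 with WT 4 at 0.12 and KO 1 with WT 3 at 0.11). The reported fit has no block, and the fit with the number as a block is given where it changes a call. With the block the SE was 0.26 for Ifi204, 0.20 for Ifi205 and 0.21 for Aim2, against 0.29, 0.39 and 0.29 without it. The pairing is read from the data, since no label states a common litter or day. Sex, each array left out, 3 scalings, a filter on dim rows, the mean of a gene's rows and another variance model were alternatives. The fit was checked on simulated data. RefSeq sequences and gene order are those of GRCm38.p6, and array rows carry no coordinates because no source used here names the build of the array.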

Additional observations from a re-analysis of the deposited data

Results flagged for a closer look

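In groups of 4 arrays a single array was marked where its gap to the nearest other was most of the group's range (Dixon's test), which chance does in about 1 in 20 groups. Of 138 groups looked at, 10 were marked. In the family it was Mndal, whose WT 4 value of 4.50 stood above 2.91 to 3.04 in the other WT arrays. The level of the macrophage list in KO 1 was -0.19, against 0.88 to 1.06 in the other KO arrays. Among B cell genes Pax5 read 3.36 in KO 2, against 2.14 to 2.19 in the other KO arrays, and Jchain read 3.5 in WT 4, against 1.94 to 2.13 in the other WT arrays.

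The other marked arrays belonged to genes of the pathway lists. Eif2ak2 was lowest in KO 1 (5.11, others 5.41 to 5.45) and Xrcc6 highest in KO 3 (5.22, others 4.80 to 4.86). Ifnar1 was highest in WT 4 (5.08, others 4.74 to 4.79), Naip2 lowest in WT 2 (1.10, others 1.47 to 1.51), and Il18 (1.68, others 2.06 to 2.09) and Sting1 (2.07, others 2.79 to 2.91) lowest in WT 1.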

How the results depend on the processing

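The differences of Ifi204, Ifi205 and Aim2 kept their sign and moved by less than the within-group SD in every alternative that measured them. Leaving out each array in turn gave 2.12 to 2.56 for Ifi204, 1.29 to 1.85 for Ifi205 and 0.40 to 0.91 for Aim2. Renewed quantile normalization gave 2.00 for Ifi204, 1.30 for Ifi205 and 0.76 for Aim2, and cyclic loess 1.98, 1.24 and 0.87. The row shared by Ifi211 and Ifi204 stood at 1.42 and 1.39 after these scalings. Aim2 was left out by the filter on dim rows. Of the 3 members 1 was called after renewed quantile normalization, 1 after cyclic loess and 1 among males only, and 1 to 3 when an array was left out. Calls over all genes, 4792 as reported, numbered 2370 after renewed quantile normalization, 2699 after cyclic loess, 915 among males only and 2240 to 6070 when an array was left out. With the replicate number as a block they numbered 5046. The block took the inflammasome list to 9 calls and called Il18 and, among the dendritic cell markers, Itgax (1.26), and changed no other call of a gene named here. Without KO 1, KO 3 or after median centring Itgax was called too, Cd209a with the filter or without WT 1, and Kdr after renewed quantile normalization, cyclic loess or without KO 2.

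List counts moved as follows. After renewed quantile normalization 1 of the 8 relatives, 4 DNA sensing and 9 interferon-stimulated genes were called, and after cyclic loess 1, 6 and 9. List medians after these scalings were 0.37 and 0.39 for DNA sensing, 0.48 and 0.53 for inflammasome and 0.10 and 0.15 for interferon signalling genes. They were 0.45 and 0.46 for interferon-stimulated genes, 0.99 and 0.98 for macrophage markers and 0.12 and 0.16 for the relatives. Median centring gave 9 inflammasome calls and the filter on dim rows 1 relative. Among males only, with 3 arrays per genotype, the counts were 1 relative, 4 DNA sensing, 2 inflammasome, 1 interferon signalling, 6 interferon-stimulated and 1 p204 partner gene. Leaving out an array gave 0 to 2 relatives, 6 to 12 DNA sensing, 3 to 7 inflammasome, 4 to 7 interferon signalling, 10 to 21 interferon-stimulated and 4 to 8 partner genes. The female minus male test called 1 gene as reported, 2 after renewed quantile normalization, 2 after cyclic loess, 2 with the filter and 3 with a trend and robust variances. The genotype-by-sex test called 1, and 0 with the filter (59 at an unadjusted p under 0.05). Among males only, Sting1, Irf7, Prkdc, Casp8, Ifna1, Jak2, Stat2, Ifit1, Rb1, Rbl1, Nkx2-5 and Adgre1 also lost their call. No sex term of Ifi204, Ifi205 or Aim2 passed in any alternative. The cause of these moves was not tested, and the fits among males only or without an array also had fewer arrays. Signal over background is unknown, which limits Aim2 and the dim relatives.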
